A study of Mus musculus with 6 samples.

Results

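ADAM, ADAMTS and matrix metalloprotease (MMP) genes encode zinc proteases that cut proteins at the cell surface and in the extracellular matrix. ADAMs are anchored in the membrane and release the outer domains of receptors and adhesion molecules, which is called shedding. ADAMTS proteases are secreted and cut proteoglycans and procollagens, MMPs cut a wide range of matrix and surface proteins, and tissue inhibitors of metalloproteases (TIMPs) block them. Several ADAMs and all ADAMTS-like proteins cannot cut proteins and act as binding partners instead. In cortex these genes are known for the remodelling of perineuronal nets and synapses, for the shedding of synaptic adhesion proteins, and for the binding of LGI proteins at synapses and axons.

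The genes described here were chosen by symbol, as all numbered *Adam*, *Adamts*, *Adamtsl* and *Mmp* genes and *Timp1* to *Timp4* in the expression tables, with 1 gene of the 78 that match left out. They are 77 of the 21667 named genes. Somatosensory cortex was sequenced from 3 *Mef2c* cKO mice, which are *Mef2c* fl/fl and carry Emx1-Cre, and from 3 control mice, which are *Mef2c* fl/fl without Cre. All 6 were adult males of a strain labelled mixed SVeV-129; C57BL/6J, aged 14 weeks in replicate 1 of each genotype and 12 weeks in replicates 2 and 3. Cre is expressed from the *Emx1* gene, so that *Mef2c*, which encodes a transcription factor, is removed from embryonic stages on in excitatory neurons and in some glia of the forebrain, and not in interneurons. The tissue holds all these cells, and fewer cells of a type and less RNA per cell cannot be told apart in it. Levels are in CPM, the reads of a gene among every 1000000 reads of that mouse, and were recovered from the deposited RPKM values. The samples held 19326365 to 54128334 reads. Genotypes were compared with limma over 14625 genes, and a gene is called increased or decreased in the cKO where its p-value, adjusted by Benjamini-Hochberg over these genes, was below 0.05 and its log2 fold change exceeded 0.3 in size.

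Among all genes, *Mef2c* itself gave 800, 772 and 800 CPM in control replicates 1, 2 and 3 and 1231, 1276 and 1468 CPM in cKO replicates 1, 2 and 3. This count takes in reads from outside the floxed part, so it does not check the deletion. *Emx1*, the gene that holds Cre in the cKO, gave 16.5, 20.3 and 18.8 CPM in controls and 5.71, 4.97 and 5.10 CPM in the cKO. All 8 pyramidal neuron markers looked at were detected.

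Of the 77 genes, 53 had enough reads to be tested, that is more than 0.5 CPM in every mouse of at least 1 genotype. Past both cut-offs were 11 of the 53 (20.8%), against 13.7% of all tested genes. The increased genes were *Adamts3*, *Adamts16*, *Adamts9*, *Mmp17* and *Adam19* (5 of 53, against 5.88% of all tested genes). The decreased genes were *Adamtsl2*, *Adamts8*, *Adamts15*, *Adamtsl5*, *Adamts20* and *Adam11* (6 of 53, against 7.77%). The values of the genotypes did not overlap for 29 of the 53 (54.7%), compared with 33.8% of all tested genes. With 3 mice in each genotype an exact permutation test of a single gene cannot go below p = 0.10. The median log2 fold change of the 53 was 0.04, beside 0.01 over all tested genes.

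**Figure D1:**
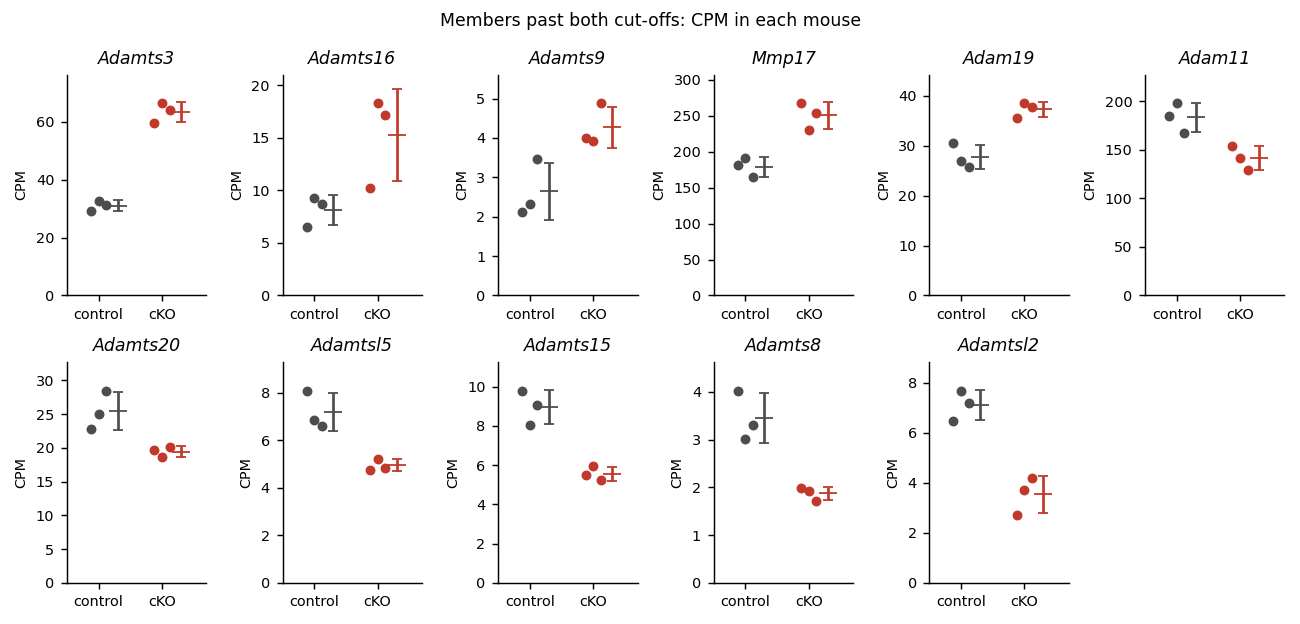
CPM (y axis, from 0, a scale for each gene) of the 11 genes past both cut-offs in each control mouse (grey points) and each *Mef2c* cKO mouse (red points), with the mean and SD over 3 mice as a bar beside the points. In none of the 11 panels do the genotypes overlap. The 11 genes were chosen by a test on these same values, so this absence of overlap is no further evidence. *Adamts3* rises from 31.1 to 63.4 CPM on average while *Adamtsl2* falls from 7.12 to 3.54 CPM.

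The 11 genes differ in whether their product can cut proteins. The catalytic domain of these proteases holds a zinc-binding site of 11 codons with histidine at codons 1, 5 and 11 and glutamate at codon 2. A search of the longest annotated protein of each gene (gencode vM1, on NCBIM37, which is mm9) found the site in 56 of the 76 genes with a coding transcript. It was present in all 8 ADAM sheddases, all 19 ADAMTS genes and all 23 MMPs, and absent from the 3 neuronal ADAMs, the 5 ADAMTS-like genes and the 4 TIMPs. Of the 11 genes past the cut-offs, 8 hold the site and 3 (*Adam11*, *Adamtsl2* and *Adamtsl5*) do not. The 33 coding bases follow for these 8 genes, 5′ to 3′, followed by the stretch aligned to the site in the 3 neuronal ADAMs. Capitals mark codons 1, 2, 5 and 11.
*Adam19*: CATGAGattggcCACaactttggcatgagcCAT
*Mmp17*: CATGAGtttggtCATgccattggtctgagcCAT
*Adamts3*: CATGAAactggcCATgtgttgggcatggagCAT
*Adamts16*: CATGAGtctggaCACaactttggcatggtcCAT
*Adamts9*: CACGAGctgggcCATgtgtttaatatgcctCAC
*Adamts20*: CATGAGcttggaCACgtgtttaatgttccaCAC
*Adamts15*: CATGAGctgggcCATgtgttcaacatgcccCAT
*Adamts8*: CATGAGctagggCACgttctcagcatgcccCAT
*Adam11*: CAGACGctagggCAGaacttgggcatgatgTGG
*Adam22*: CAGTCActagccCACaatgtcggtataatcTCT
*Adam23*: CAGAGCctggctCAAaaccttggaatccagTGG
The first 8 lines hold histidine and glutamate codons at all 4 marked positions. *Adam11* and *Adam23* hold 0 of these 4 residues and *Adam22* holds 1, the histidine of codon 5. The stretch lies within coding exon sequence in every case. On mm9 it is at chr11:45938552-45938584 in exon 11 of *Adam19*, at chr5:130102472-130102504 in exon 5 of *Mmp17*, and in exon 13 of each neuronal ADAM, at chr11:102634927-102634959 (*Adam11*), chr5:8143064-8143096 (*Adam22*) and chr1:63594337-63594369 (*Adam23*). In the 6 ADAMTS genes shown it is split by an intron. In *Adamts3*, for example, it runs from exon 8 into exon 9, between positions 90136458 and 90136843 of chromosome 5.

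The neuronal ADAMs, which are receptors of the LGI proteins, ranked 3, 4 and 6 of 76 by level per length. Past both cut-offs was 1 of the 3 (33.3%, against 13.7% of all tested genes). *Adam11* (chr11:102622753-102641576) gave 184, 198 and 168 CPM in control replicates 1 to 3 and 154, 142 and 130 CPM in the cKO. Every cKO mouse was below every control, and the level was decreased (log2 fold change -0.37, SE 0.08, adjusted p = 0.0134). Without control replicate 2 the adjusted p was 0.0535, and the call was also lost in a fit without the variance trend of limma. *Adam23*, the receptor of LGI1 on the axonal side, gave 232, 214 and 220 CPM in controls and 173, 197 and 178 CPM in the cKO. The genotypes did not overlap here either, and the adjusted p of 0.0165 passed while the log2 fold change of -0.28 was just short of the cut-off. It passed both without control replicate 2 (-0.31, adjusted p = 0.0338) and without cKO replicate 2 (-0.34, adjusted p = 0.0103). *Adam22*, which anchors LGI1 at the postsynaptic density, gave 335, 351 and 346 CPM in controls and 319, 364 and 371 CPM in the cKO. Its genotypes overlapped (log2 fold change 0.03, SE 0.07, adjusted p = 0.834). The differences between the fold changes of these 3 receptors were not tested.

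Of the 8 ADAM sheddases, which release ectodomains from the cell surface, all were tested and 1 passed (12.5%, against 13.7% of all tested genes). *Adam19*, which sheds neuregulins, gave 30.5, 26.9 and 25.8 CPM in controls and 35.6, 38.5 and 37.9 CPM in the cKO. All cKO mice were higher (log2 fold change 0.43, SE 0.08, adjusted p = 0.00595), and the call held when any 1 mouse was left out. *Adam9*, a sheddase found in many tissues, gave 65.6, 68.1 and 73.7 CPM in controls and a narrow 58.9, 58.2 and 59.5 CPM in the cKO. It passed the test but not the fold change (log2 fold change -0.23, adjusted p = 0.0353). *Adam10*, the main alpha-secretase of neurons, which cuts APP, N-cadherin and Notch, gave 96.4, 92.1 and 99.8 CPM in controls and 105, 107 and 117 CPM in the cKO. Every cKO mouse was above every control, by a mean ratio of 1.14, but the adjusted p was 0.0753. *Adam15* overlapped between genotypes (93.6 ± 7.48 CPM in controls and 105 ± 7.51 CPM in the cKO, SD, n = 3, limma adjusted p = 0.185). The remaining 4, *Adam8*, *Adam12*, *Adam17* and *Adam28*, did not pass.

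The ADAMs known from germ cells, with a few others, had few reads or none. Of these 15 genes, 11 were not tested and 4 were, and limma called 0 of the 4, with 0 at an unadjusted p under 0.05 and 0 with voom weights. *Adam5* gave 3.06, 3.36 and 3.67 CPM in controls and 2.96, 2.90 and 2.36 CPM in the cKO (adjusted p = 0.253). *Adam18* varied among controls, with 0.588 CPM (20 reads) in replicate 1 and 3.97 and 5.37 CPM in replicates 2 and 3, and 2.90, 2.33 and 2.31 CPM in the cKO. Its fitted log2 fold change of 0.07 (SE 0.64) turned to -0.86 without that mouse (adjusted p = 0.0238).

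The 7 ADAMTS proteoglycanases, which cut aggrecan, brevican and versican, had 4 genes past the cut-offs (57.1%, against 13.7% of all tested genes), in both directions. *Adamts8* gave 4.03, 3.02 and 3.32 CPM in controls and 1.99, 1.91 and 1.72 CPM in the cKO, where it rested on 37 to 93 reads a mouse. It was decreased to 0.542 of the control mean (log2 fold change -0.84, SE 0.16, adjusted p = 0.00644). *Adamts15* gave 9.79, 8.06 and 9.08 CPM in controls and 5.50, 5.95 and 5.23 CPM in the cKO. This decrease (log2 fold change -0.68, SE 0.12, adjusted p = 0.00380) and that of *Adamts8* held when any 1 mouse was left out. *Adamts20*, a versican-cutting protease known from pigment cell migration, gave 22.8, 25 and 28.5 CPM in controls and 19.6, 18.6 and 20.1 CPM in the cKO, and the genotypes did not overlap. Its call (log2 fold change -0.38, adjusted p = 0.0235) was lost without control replicate 2 or 3 or cKO replicate 1 or 2, with adjusted p-values of 0.0639, 0.0773, 0.0567 and 0.0727.

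*Adamts9* moved the other way in this group, with 2.12, 2.33 and 3.47 CPM in controls and 4.0, 3.93 and 4.88 CPM in the cKO. It was increased by a log2 fold change of 0.70 (SE 0.20), with the adjusted p closest to the threshold among the family's called genes (0.0407). The call held without control replicate 3 alone of the 6 omissions. The adjusted p was 0.127 and 0.125 without control replicates 1 and 2, and 0.0790, 0.0648 and 0.124 without cKO replicates 1, 2 and 3. The call was also lost in fits without the variance trend or without the CPM filter. *Adamts4*, a brevican-cutting protease of oligodendrocyte lineage cells, gave 18.3, 15.8 and 25.9 CPM in controls and 22.7, 27.8 and 29.0 CPM in the cKO. Control replicate 3 reached into the cKO range, and the gene did not pass (log2 fold change 0.42, adjusted p = 0.137); without that mouse the value was 0.63 (adjusted p = 0.0154), and without control replicate 2 it was 0.27 (adjusted p = 0.350). *Adamts1* and *Adamts5* did not pass either. The median log2 fold change of the 7 genes was -0.38.

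*Adamts3* had the largest fold change among the increased genes and the lowest adjusted p of the 53. It is a procollagen N-propeptidase, which trims fibrillar procollagen and also cuts reelin and the precursor of VEGF-C. It lies at chr5:90102866-90312359 on mm9, on the minus strand. Controls gave 29.2, 32.8 and 31.2 CPM from 992, 1619 and 1609 reads, and cKO mice 59.7, 66.4 and 64.0 CPM from 1954, 1284 and 3465 reads. Every cKO mouse was above the highest control, and the cKO mean was 2.04 times the control mean (log2 fold change 1.03, SE 0.07, adjusted p = 1.98e-05). Leaving out any 1 mouse kept the log2 fold change between 0.98 and 1.07. *Adamts2*, the related protease of skin and tendon, gave 11.6, 11.1 and 13.6 CPM in controls and 16.8, 12.2 and 13.6 CPM in the cKO. These overlapped (log2 fold change 0.21, SE 0.13, adjusted p = 0.339). *Adamts14* was at 0.524 to 0.790 CPM in controls and 0.828 to 1.37 CPM in the cKO, without overlap and without passing the test (adjusted p = 0.11), which it passed without cKO replicate 2.

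Among the other ADAMTS genes 1 of 9 passed (11.1%, against 13.7% of all tested genes). *Adamts16*, known from kidney and gonad, gave 6.53, 9.23 and 8.69 CPM in controls and 10.2, 18.3 and 17.2 CPM in the cKO. The increase (log2 fold change 0.86, SE 0.22, adjusted p = 0.0264) was smaller in cKO replicate 1, the cKO mouse of 14 weeks, than in the other two. The lowest value among controls was also in the mouse of 14 weeks, and with age as a covariate the adjusted p was 0.00152. Without control replicate 1 or 3 or cKO replicate 2 or 3 the adjusted p was 0.0887, 0.0546, 0.0845 and 0.0852, and the call was lost. That call was also lost in a fit without the variance trend of limma. *Adamts10*, which binds fibrillin microfibrils, gave 20.9 ± 2.66 CPM in controls and 21.2 ± 1.13 CPM in the cKO (SD, n = 3; limma adjusted p = 0.907). *Adamts17* gave 14.8 ± 1.78 CPM and 14.7 ± 0.220 CPM (adjusted p = 0.999).

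The ADAMTS-like genes encode matrix proteins with the ancillary domains of ADAMTS proteases and no protease domain. Of these 5 genes 2 were decreased, against 7.77% of all tested genes. *Adamtsl2*, which binds the latent TGF-beta binding protein LTBP1, gave 6.47, 7.69 and 7.20 CPM in controls and 2.72, 3.73 and 4.18 CPM in the cKO. It fell to 0.497 of the control mean (log2 fold change -1.01, SE 0.17, adjusted p = 0.00317), and the fall held without any 1 mouse. *Adamtsl5* gave 8.09, 6.86 and 6.62 CPM in controls and 4.76, 5.23 and 4.82 CPM in the cKO. Here the call (log2 fold change -0.53, adjusted p = 0.0170) was lost without control replicate 1 (adjusted p = 0.0636) and without cKO replicate 1 or 3 (0.0533 and 0.0502), and under the replicate block (0.0512). The other three had positive fitted values and did not pass. *Adamtsl3* was the closest of the 53 to the threshold from outside, at 1.32, 1.7 and 2.37 CPM in controls and 2.72, 2.90 and 3.01 CPM in the cKO (log2 fold change 0.69, adjusted p = 0.0544). Without control replicate 3 its value was 0.89 (adjusted p = 0.0179). *Adamtsl1* gave 7.12, 4.74 and 7.26 CPM and 9.10, 8.07 and 9.22 CPM (log2 fold change 0.48, adjusted p = 0.0868), with 0.29 without control replicate 2. *Adamtsl4* gave 9.28 ± 1.71 CPM in controls and 11.1 ± 0.955 CPM in the cKO, and its genotypes overlapped.

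**Figure D2:**
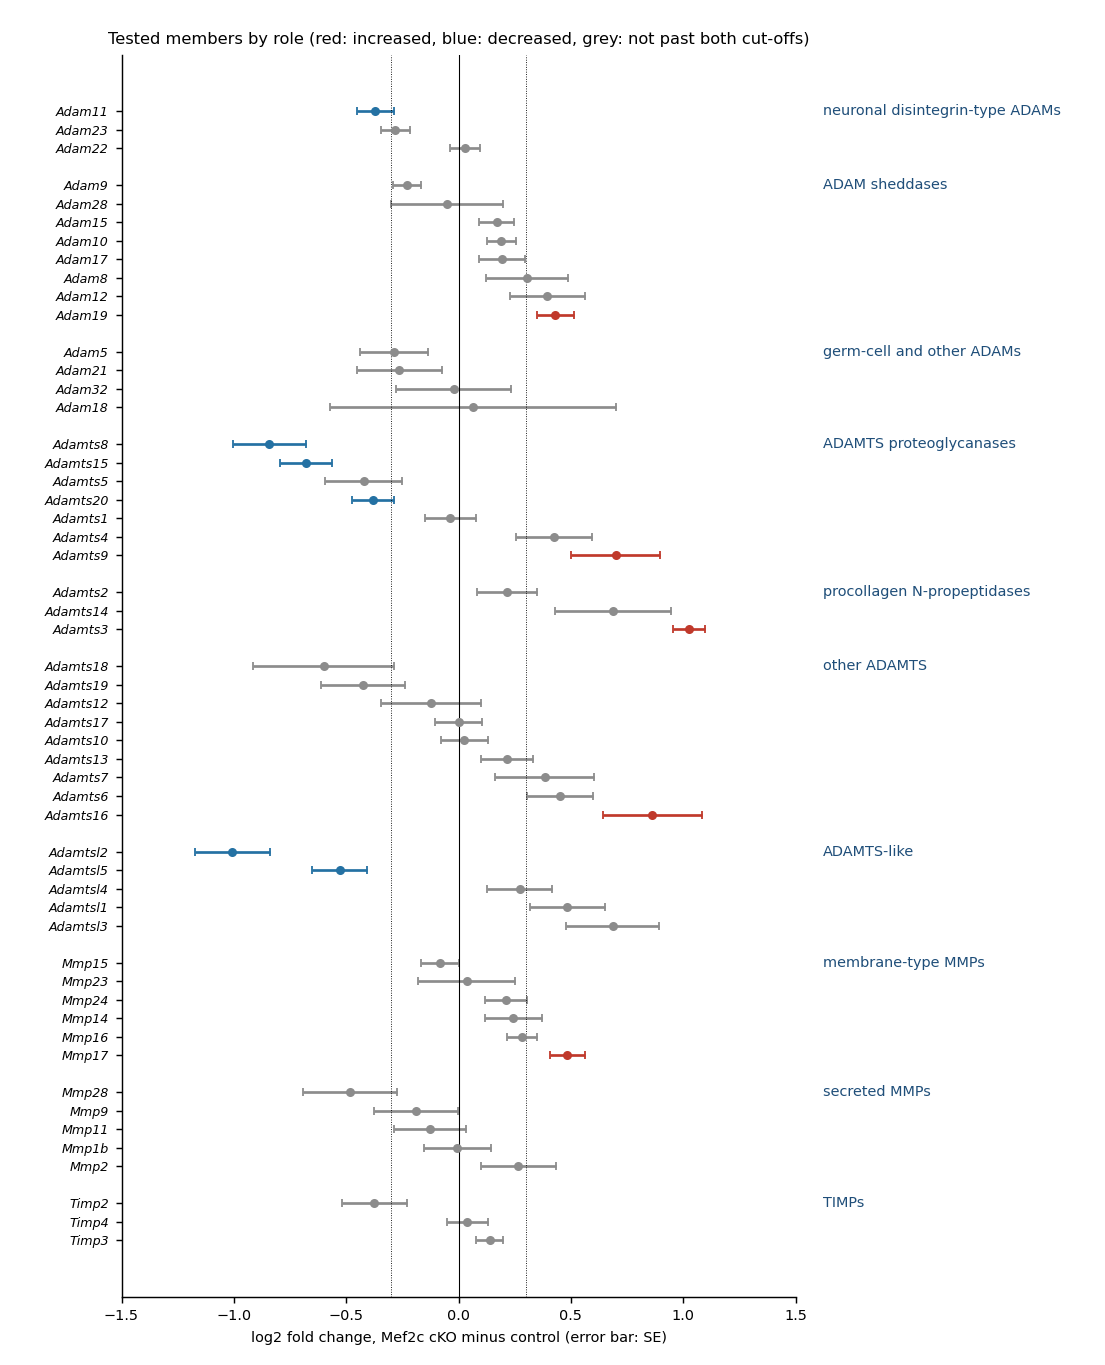
Log2 fold change of *Mef2c* cKO against control (x axis) with its SE for the 53 tested genes, grouped by role, with dotted lines at the fold change cut-off of 0.3 in each direction. Red genes were increased, blue ones decreased and grey ones did not pass both cut-offs. The called genes are spread over the neuronal ADAMs, sheddases, ADAMTS groups, ADAMTS-like genes and membrane-type MMPs, with decreases down to -1.01 (*Adamtsl2*) and increases up to 1.03 (*Adamts3*).

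The membrane-type MMPs are held at the cell surface by a transmembrane segment or a lipid anchor. In this group 1 of the 6 tested genes passed (16.7%, against 13.7% of all tested genes). *Mmp17*, the lipid-anchored MT4-MMP, had the highest level per length. It gave 182, 192 and 164 CPM in controls and 267, 230 and 254 CPM in the cKO. These did not overlap, and the increase to 1.40 times the control mean (log2 fold change 0.48, SE 0.08, adjusted p = 0.00232) held without any 1 mouse. *Mmp16*, the transmembrane MT3-MMP, gave 44.2, 43.9 and 48.8 CPM in controls and 56.7, 56.6 and 53.2 CPM in the cKO. It passed the test with a fold change just under the cut-off (log2 fold change 0.28, SE 0.07, adjusted p = 0.0194), and passed both without control replicate 3 (0.33) or cKO replicate 3 (0.31). *Mmp24*, the MT5-MMP of neurons, gave 31.8, 34.3 and 36.0 CPM in controls and 44.8, 36.3 and 37.4 CPM in the cKO. The genotypes were apart by a narrow margin, and the gene did not pass (adjusted p = 0.174), nor did *Mmp14*, *Mmp15* and *Mmp23*.

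Secreted MMPs, the gelatinases, collagenases and stromelysins, were scarce. Of 16 genes 5 were tested, and limma called 0 of the 5, with 1 (*Mmp28*) at an unadjusted p under 0.05 and 0 with voom weights. *Mmp2*, gelatinase A, gave 1.73, 2.0 and 2.06 CPM in controls and 2.60, 2.02 and 2.44 CPM in the cKO (log2 fold change 0.27, adjusted p = 0.333). *Mmp1b* gave 2.12 ± 0.102 CPM in controls and 2.12 ± 0.159 CPM in the cKO, and reads could be split between it and its close copy *Mmp1a*, which held no read in any mouse. *Mmp9*, gelatinase B, the MMP most studied at synapses, gave 1.82, 1.84 and 2.08 CPM in controls and 1.34, 2.02 and 1.7 CPM in the cKO (adjusted p = 0.565).

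Of the TIMPs, 3 of 4 were tested and limma called 0, with 2 at an unadjusted p under 0.05 and 0 with voom weights. *Timp2*, the inhibitor that also takes part in the activation of pro-MMP2, gave 167, 180 and 173 CPM in controls and 149, 101 and 159 CPM in the cKO. All cKO mice were lower, but replicate 2 stood apart from the other two, and the adjusted p was 0.12 (log2 fold change -0.38, SE 0.14). Without cKO replicate 2 the value was -0.17 (adjusted p = 0.142), and without cKO replicate 3 it was -0.50 (adjusted p = 0.0482). *Timp3*, which is bound to the matrix and also inhibits ADAM17 and ADAMTS proteases, gave 57.2, 53.5 and 54.8 CPM in controls and 60.4, 58.9 and 63.0 CPM in the cKO. The genotypes did not overlap, and the gene did not pass (log2 fold change 0.14, adjusted p = 0.164). *Timp4* overlapped (adjusted p = 0.828), and *Timp1*, the inducible inhibitor, was not tested, with 1 to 9 reads a mouse.

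Per kilobase of annotated exon, the levels of the family ran over a wide range. *Mmp17* stood first with 51.4 ± 3.97 CPM per kilobase in controls and 71.9 ± 5.37 in the cKO. *Timp2* came next with 44.6 ± 1.71 and 35.0 ± 7.93, followed by *Adam11* with 32.3 ± 2.67 and 25 ± 2.13, and by *Adam22* with 28.1 ± 0.676 and 28.7 ± 2.33 (SD, n = 3 mice for each). In controls the SDs of *Mmp17* and *Timp2* do not meet, while *Adam10* (19.5 ± 0.789) and *Adam23* (20.2 ± 0.819) do not differ beyond their spread. *Adamts3*, at 3.63 ± 0.212 in controls, reached 7.42 ± 0.401 CPM per kilobase in the cKO, close to *Timp3* (7.46 ± 0.258). The decreased *Adamts8* lay low in this order, at 0.749 ± 0.113 in controls and 0.406 ± 0.0300 in the cKO. These levels rest on the exon lengths of gencode vM1, which is not the annotation the authors counted on.

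**Figure D3:**
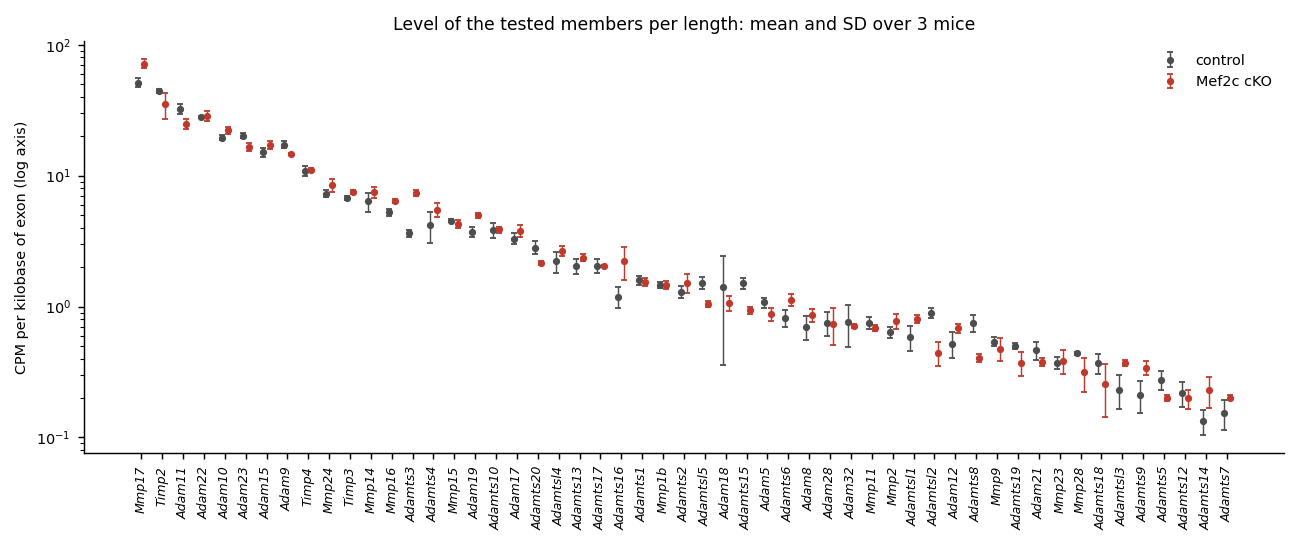
Level of the 53 tested genes in CPM per kilobase of annotated exon (y axis, log scale), in order of the mean of both genotypes, with mean and SD over 3 control mice (grey) and 3 *Mef2c* cKO mice (red). *Mmp17*, *Timp2*, *Adam11* and *Adam22* are on the left, and the called *Adamts9* is near the right end, at 0.211 and 0.341 CPM per kilobase.

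The other 24 genes were not tested. No read fell on 8 of them in any mouse, and the other 16 held up to 140 reads over all 6 mice (*Mmp25*, 0.581 CPM on average). Whether a count of 0 reflects no expression was not tested, and *Prnp*, the prion protein gene listed below, also held 0 reads in every mouse. They are 11 ADAMs, 11 secreted MMPs, *Mmp25* and *Timp1*. Without the filter on low values 1 of them passed both cut-offs, *Mmp12*, macrophage elastase, with 2, 5 and 5 reads in controls and 0, 0 and 1 read in the cKO.

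Genes that work with these proteases were taken from 5 lists. The lists were chosen with earlier results of these data known, so their counts are no independent evidence. Over all tested genes 5.88% were increased and 7.77% decreased. Of the genes listed as partners of ADAM22 and ADAM23, 3 of 11 were decreased, and the other 8 did not pass both cut-offs. Whether the product of each listed gene binds these receptors was not tested. *Lgi1*, the secreted ligand that bridges ADAM22 and ADAM23, gave 141, 142 and 142 CPM in controls and 116, 103 and 106 CPM in the cKO (log2 fold change -0.39, SE 0.06, adjusted p = 0.00183). *Kcna2*, an axonal potassium channel subunit, gave a log2 fold change of -0.40 (adjusted p = 0.0154), and lost its call without control replicate 1 or 3 or cKO replicate 1 (adjusted p = 0.0586, 0.0583 and 0.0546). *Stx1a*, the presynaptic SNARE protein, gave 371 to 411 CPM in controls and 183 to 197 CPM in the cKO (log2 fold change -1.04, adjusted p = 6.91e-06). *Dlg4*, which encodes the scaffold PSD-95, passed the test but not the fold change (log2 fold change -0.22, adjusted p = 0.0371), with every cKO mouse below every control. *Lgi2*, *Lgi3* and *Lgi4* were among those that did not pass.

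Of the genes for the trafficking and activation of ADAM10 and ADAM17, 4 of 11 tested were decreased. *Tspan14*, *Tspan17* and *Tspan33* are TspanC8 tetraspanins, which carry ADAM10 to the cell surface, and *Rhbdf1* encodes iRhom1, which does so for ADAM17. *Tspan33* gave 25.7, 30.6 and 25.9 CPM in controls and 14.5, 11.3 and 14.5 CPM in the cKO (log2 fold change -1.02, SE 0.12, adjusted p = 0.000397). *Rhbdf1* gave 12.7, 13.9 and 13.4 CPM in controls and 8.86, 8.43 and 9.27 CPM in the cKO (log2 fold change -0.59, adjusted p = 0.00237). *Tspan14* and *Tspan17* had log2 fold changes of -0.36 and -0.46 (adjusted p = 0.00997 and 0.0129), and that of *Tspan17* had an adjusted p of 0.0536 without control replicate 2. Of the other TspanC8 genes on the list, *Tspan15* had a positive value that did not pass (log2 fold change 0.33, adjusted p = 0.0572), with every cKO mouse above every control. *Tspan5* gave -0.06 (adjusted p = 0.506), and *Tspan10*, with 0 to 2 reads a mouse, was not tested. For both proteases themselves the fitted values were positive and did not pass.

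Of the membrane proteins shed by these proteases, 1 was increased and 3 were decreased among 12 tested. *Prnp*, with 0 reads in every mouse, and *Tnf*, with 0 to 5 reads a mouse, were not tested. *Nrg1*, whose product is cut by sheddases to release neuregulin, gave 15.2, 17.1 and 16.5 CPM in controls and 6.44, 7.61 and 7.85 CPM in the cKO (log2 fold change -1.15, SE 0.11, adjusted p = 0.000126). *Nlgn1*, a postsynaptic adhesion protein that is shed by MMPs and ADAM10, gave 137 to 164 CPM in controls and 84.7 to 94.8 CPM in the cKO (log2 fold change -0.75, adjusted p = 0.000210). *Hbegf*, the precursor of an EGF receptor ligand, had a log2 fold change of -0.39 (adjusted p = 0.0152), with 0.0553 without control replicate 2, 0.0532 without cKO replicate 3 and 0.0501 under the replicate block. *Notch1*, a receptor activated by ADAM10, had one of 0.34 (adjusted p = 0.0286). That call held without cKO replicate 2 alone of the 6 omissions, with adjusted p-values of 0.0642, 0.0979 and 0.0534 without control replicates 1, 2 and 3 and of 0.0954 and 0.0924 without cKO replicates 1 and 3.

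Of the proteoglycan and matrix substrates, 2 were increased and 1 decreased among 12. *Tnc*, the matrix glycoprotein tenascin-C, gave 4.59, 5.91 and 6.75 CPM in controls and 15.3, 11 and 15.3 CPM in the cKO (log2 fold change 1.26, SE 0.17, adjusted p = 0.00107). *Hapln2*, a link protein at nodes of Ranvier, had a log2 fold change of 0.50 (adjusted p = 0.00557). *Acan*, aggrecan of perineuronal nets, gave 7.06, 5.12 and 5.39 CPM in controls and 3.39, 4.61 and 3.57 CPM in the cKO (log2 fold change -0.59, adjusted p = 0.0440). Its call held without cKO replicate 2 alone of the 6 omissions, with adjusted p-values of 0.143, 0.0588 and 0.0782 without control replicates 1, 2 and 3 and of 0.134 and 0.116 without cKO replicates 1 and 3, and was lost under the replicate block (0.0974) and with age as a covariate (0.0672). *Tnr* passed the test but not the fold change (log2 fold change 0.28, adjusted p = 0.0476), with every cKO mouse above every control. Brevican, neurocan, versican and reelin genes did not pass.

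Of the regulators of matrix proteases, 3 of 12 were decreased. *Reck*, a membrane-anchored inhibitor of MMPs, gave 23.1, 27.7 and 24.5 CPM in controls and 17.3, 18.7 and 18.2 CPM in the cKO (log2 fold change -0.47, SE 0.09, adjusted p = 0.00600). *Papln*, papilin, a matrix protein related to ADAMTS proteases, had a log2 fold change of -0.94 (adjusted p = 0.00879). *Spock3*, a testican, had one of -0.43 (adjusted p = 0.0118). The plasminogen activator and serpin genes did not pass.

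**Figure D4:**
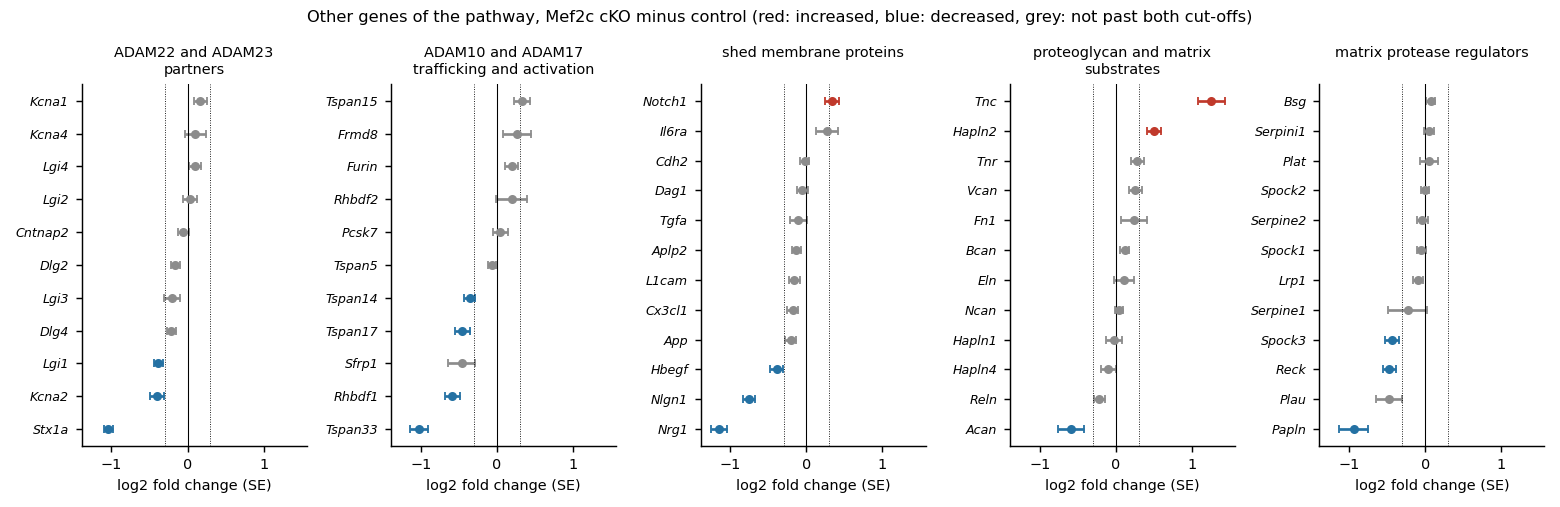
Log2 fold change of *Mef2c* cKO against control (x axis) with its SE for the tested genes of the 5 lists, 1 panel a list, with dotted lines at 0.3 in each direction. Blue genes were decreased, red ones increased and grey ones did not pass. *Stx1a* (-1.04), *Tspan33* (-1.02), *Nrg1* (-1.15) and *Papln* (-0.94) lie farthest to the left of their panels and *Tnc* (1.26) farthest to the right.

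Markers of several cell types moved with genotype beside these genes. For comparison, 5.88% of all tested genes were increased and 7.77% decreased. Of 8 astrocyte markers 2 were increased (*Gfap* and *Aqp4*) and 1 decreased, and 7 had an unadjusted limma p under 0.05. The median log2 fold change of the 8 was negative, at -0.12. Their summed level was lower in every cKO mouse, at 4679 to 4966 CPM in controls and 4121 to 4385 CPM in the cKO. *Gfap* gave 49.4, 60.8 and 68.7 CPM in controls and 143, 130 and 191 CPM in the cKO. Of 8 oligodendrocyte markers 2 were increased, with sums of 3236 to 5314 CPM and 5249 to 6746 CPM. Their median log2 fold change was 0.53, and 7 of the 8 had an unadjusted limma p under 0.05. Of 6 oligodendrocyte precursor markers 2 were increased, with sums of 217 to 235 CPM and 248 to 286 CPM. Here the median was 0.29, and 4 of the 6 had an unadjusted limma p under 0.05. In controls the oligodendrocyte sum was lowest in replicate 2 and highest in replicate 3, and *Adamts4* had the same order.

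Vascular cells express several ADAMTS genes and TIMPs. Limma called 0 of 8 endothelial markers (1 at an unadjusted p under 0.05, 0 with voom weights), with sums of 248 to 279 CPM in controls and 239 to 247 CPM in the cKO. It called 0 of 8 mural cell markers (2 unadjusted, 0 with voom), with sums of 139 to 143 CPM and 128 to 154 CPM. Of 8 fibroblast markers 1, *Dcn*, was increased, with sums of 62.5 to 69.6 CPM and 60.1 to 130 CPM. Limma called 0 of 8 microglia markers (3 unadjusted, 0 with voom), with sums of 449 to 785 CPM and 327 to 582 CPM.

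Among neurons, 4 of 8 pyramidal markers were increased and 1, *Emx1* itself, was decreased, with sums of 5714 to 6825 CPM in controls and 5946 to 7025 CPM in the cKO. Of 8 interneuron markers 1 was increased and 1 decreased, with sums of 715 to 818 CPM and 758 to 806 CPM. Markers of neighbouring tissue were also measured. The choroid plexus sum was 9.38 to 31.6 CPM in controls and 11.3 to 11.6 CPM in the cKO (0 of 4 tested called by limma, 1 unadjusted, 0 with voom). The striatal sum was 159 to 219 CPM and 122 to 323 CPM, with 1 of 7 increased. Both of these sums overlapped between genotypes, and the thalamic sum, at 133 to 168 CPM and 97.8 to 108 CPM with 1 increased and 2 decreased of 6, did not. No marker was at 0 in all mice. The part of any of these shifts in the protease genes was not tested.

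The promoters of 48 of the 77 genes are in the RefSeq table used here (GRCm38.p6). A MEF2 motif, on either strand, lies in the 250 bases before the start of 1 of them, *Mmp10*, which was not tested. Of 27025 promoters in all, 1.73% hold it in the same window.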

How the data were processed

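RNA-seq was done on 6 samples of mouse somatosensory cortex. Per the paper, the authors selected polyA RNA, prepared directional libraries, aligned reads to mm9 with TopHat and Bowtie and counted them on UCSC mm9 genes with HTSeq, with versions not given in the sources used here. Whether the counting used strand is not stated. The deposited values are RPKM, which the authors computed from the counts, in 1 table a mouse with 21667 named genes and 92 unnamed rows. The unnamed rows held 0.057% to 0.085% of reads and were left out.

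The lengths behind the RPKM repeat along the table with a period of 65 to 296 rows, in the order of gene identifiers, and differ between mice, so that deposited RPKM of 1 gene are not comparable between mice (their highest over lowest value had a median of 39.8 over the 60 family genes above 0 in every mouse, against 1.64 for CPM). From the place of each row in that order, whole read counts were recovered for 99.97% to 100% of values above 0, at most 0.0034 from a whole number, and for all 77 genes in all mice. Lengths and places were chosen to make values whole multiples of 1 read, so this closeness is no independent check. A single length fits only 55.71% (cKO replicate 3) to 88.5% (cKO replicate 2) of values, and the others rest on the place of their row. The sample total, at which all lengths are whole numbers, gave CPM. Counts and limma fits were also run on simulated data. The simulated tables reused the row places found in these files, and the simulated fit gave all genes the same extra spread between mice. Neither is therefore a check of the counts or the spread in these mice.

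Log2(CPM + 0.1) was compared with limma 3.58.1 (lmFit, eBayes with a variance trend; R 4.3.3) for genes above 0.5 CPM in every mouse of 1 genotype, and p-values were adjusted by Benjamini-Hochberg over all 14625. Fold changes on this scale understate the change of low genes. Both genotypes share replicate numbers, but same-numbered mice did not deviate together (correlations of deviations -0.18 to -0.08), so the mice were treated as unpaired. No 2 samples of 1 genotype were alike within sampling noise (chi-square per degree of freedom of 11.8 or more). The p-values rest on the spread between these 3 mice a genotype, which limma moderates toward a trend fitted over all tested genes.

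Named in the text are all family genes past the cut-offs, those past the adjusted p alone, the 2 with the highest mean CPM of each role, those nearest the cut-offs, and list genes past the cut-offs. Any others were chosen after their values were seen. The members and lists were chosen with earlier results of these data known. Coordinates and exon lengths are from gencode vM1. Python 3.11.15, pandas 2.3.3, numpy 2.4.6, Biopython 1.88 and matplotlib 3.10.9 were used. The alternatives were other pseudocounts, filters, scalings, variance models, covariates and sets of mice, counts with a single possible length, and the RPKM as deposited.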

Additional observations from a re-analysis of the deposited data

How the results depend on the processing

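The number of family genes past the cut-offs was 11, and 8 to 12 in all alternatives on the full set of counts; leaving out each mouse in turn gave 9 to 12, and 1657 to 1869 genes in all against 1997. Taking only counts for which a single length fits left 3 genes of the family and 995 in all, where fewer values enter. The RPKM as deposited gave 0 of 19 tested family genes (limma, 1 at an unadjusted p under 0.05) and 14 genes in all. On those values the log2 fold change was 1.07 for *Adam11*, -0.0944 for *Adam19*, 0.38 for *Adam9*, -0.49 for *Adamts16*, -1.44 for *Adamts2*, -0.46 for *Adamts3*, -2.63 for *Adamtsl1*, -0.27 for *Mmp16* and 1.80 for *Rhbdf1*, the opposite sign to that on counts. Otherwise the sign turned only in genes that did not pass: *Adam18* (-0.0265 and -0.0756 with pseudocounts of 0.5 and 1, -0.0707 with voom weights), *Mmp1b* (0.0041 with voom weights) and *Adamts17* (0.0399 with single lengths). Leaving out 1 mouse turned *Adam18* (-0.86 to 0.64), *Adamts10* (-0.0846 to 0.0818), *Adamts17* (-0.10 to 0.0624), *Mmp1b* (-0.0556 to 0.0482) and *Adam22* (-0.0128 to 0.10). Deposited RPKM of 1 gene are not comparable between mice, as described above. The cause of the turns in sign on counts was not tested.

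The replicate block, a fit paired by replicate number, gave 10 family genes and 1695 in all, with *Adamtsl5* (adjusted p = 0.0512), *Acan* and *Hbegf* lost among the named genes. 0 of 3 control mice correlated best with the cKO mouse of their own number. Age as a covariate gave 12 family genes, the 11 and *Adamtsl3* (adjusted p = 0.0496). *Adamtsl3* also passed with pseudocounts of 0.5 or 1 and with median-of-ratios scaling. Without the variance trend 8 of the 11 remained, with *Adam11*, *Adamts16* and *Adamts9* lost. Without the CPM filter 10 remained, with *Adamts9* lost and *Mmp12* added from 0 to 5 reads a mouse. *Adamts3*, *Adamts8*, *Adamts15*, *Adamtsl2*, *Adam19* and *Mmp17* were called in every alternative on counts in which they were tested. With counts for which a single length fits, however, *Adam19*, *Adamts15*, *Adamtsl2* and *Mmp17* could not be tested. *Adamts16* and *Adamts20* were tested on those counts and lost their calls. Low counts limit the precision of genes such as *Adamts8*, and 3 mice a genotype limit what could be detected.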

Other observations

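Low values of neighbouring genes in 1 control were picked out after they were seen. *Adam18* (chr8:25712718-25785227) and *Adam32* (chr8:25946612-26059276), in a cluster of ADAM genes on mm9, were both lowest in control replicate 1, at 0.588 and 1.35 CPM, against 3.97 and 2.81 CPM in replicate 2 and 5.37 and 2.68 CPM in replicate 3. *Adam5*, which lies between them, gave 3.06, 3.36 and 3.67 CPM in the same mice. A lowest value in control replicate 1 was not particular to this cluster. *Adam8* on chromosome 7 gave 2.47, 3.60 and 3.67 CPM in control replicates 1, 2 and 3, and *Adamts10* on chromosome 17 gave 17.8, 22.4 and 22.5 CPM. Other genes went the other way, such as *Adamts1* with 9.26, 7.94 and 8.05 CPM.

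In cKO replicate 2 *Adamts18* gave 0.776 CPM, beside 1.74 and 2.03 CPM in the other cKO mice and 1.94 to 2.65 CPM in controls, and *Timp2* was also lowest there.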
